A study of Homo sapiens with 9 samples.

Results

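The ubiquitin-conjugating enzyme genes, whose symbols begin with UBE2, were followed in WM266-4 GFP cells, a melanoma line derived from a metastasis, transfected with a synthetic miR-199a-3p, a microRNA mimic. Members were chosen by symbol alone, among array rows with exactly 1 gene symbol, with the brightest row kept per gene. This gave 27 genes of 14812 in all, 23 of them protein-coding and 4 annotated as transcribed pseudogenes (UBE2DNL, UBE2MP1, UBE2NL and UBE2Q2P1). The same search for proteasome subunits of the PSMA to PSMG series gave 0 named rows, so subunits of that series were not analysed here. That search did not cover subunits with other symbols. Proteasome genes with symbols outside the series, ADRM1 and SEM1 among them, are followed below as partner genes.

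All 9 samples were the same line, seeded in 24-well plates and transfected with Lipofectamine 2000, with total RNA taken 48 h later. The miR-199a-3p mimic was given at 0.5 nM (3 arrays) or at 0.25 nM (3 arrays), and a control microRNA at 0.5 nM (3 arrays), so that no control matches the lower dose in amount of small RNA. The replicates are labelled biological triplicates of 1 cell line. All groups were lipofected, and no untransfected cells were among the samples analysed here.

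Ubiquitin is passed from an activating enzyme (E1) to a conjugating enzyme (E2) and on to a substrate with the help of a ligase (E3). The E2 does much to set which kind of ubiquitin chain is built: chains linked through lysine K48 lead substrates to the proteasome, while K63-linked chains act in signalling and DNA repair. A few E2s carry relatives of ubiquitin, such as ISG15, in its place. As in other cells, this machinery turns over cell cycle and signalling proteins. A microRNA lowers transcripts that hold matches to its seed, bases 2 to 8 counted from its 5′ end, and the mature miR-199a-3p is shown because it is the sequence that separates the mimic from the control (RefSeq, GRCh38.p14; seed in capitals).
hsa-miR-199a-3p: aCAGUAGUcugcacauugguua

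Promoter windows are shown for the 3 UBE2E genes, which lay above control on every mimic array, and for UBE2N, the protein-coding member furthest below control on the mean of both doses. Each window runs from 250 bases before to 50 after the gene's start, is printed 5′ to 3′ on the gene's strand (RefSeq, GRCh38.p14), and has GC boxes (GGGCGG on either strand) in capitals.
UBE2E1 (chr3:23805705-23806004, plus strand): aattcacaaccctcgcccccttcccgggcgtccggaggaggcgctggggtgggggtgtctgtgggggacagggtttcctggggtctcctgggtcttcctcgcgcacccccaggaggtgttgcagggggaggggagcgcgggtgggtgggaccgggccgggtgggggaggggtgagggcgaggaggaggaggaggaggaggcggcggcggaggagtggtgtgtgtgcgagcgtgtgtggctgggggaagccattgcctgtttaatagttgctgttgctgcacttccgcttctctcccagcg
UBE2E2 (chr3:23202848-23203147, plus strand): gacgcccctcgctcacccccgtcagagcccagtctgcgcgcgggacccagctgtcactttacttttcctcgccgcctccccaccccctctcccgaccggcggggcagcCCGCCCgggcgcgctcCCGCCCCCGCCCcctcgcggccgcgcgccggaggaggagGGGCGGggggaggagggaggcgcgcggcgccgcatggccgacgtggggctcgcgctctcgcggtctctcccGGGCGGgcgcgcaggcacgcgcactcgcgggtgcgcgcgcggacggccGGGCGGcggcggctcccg
UBE2E3 (chr2:180980110-180980409, plus strand): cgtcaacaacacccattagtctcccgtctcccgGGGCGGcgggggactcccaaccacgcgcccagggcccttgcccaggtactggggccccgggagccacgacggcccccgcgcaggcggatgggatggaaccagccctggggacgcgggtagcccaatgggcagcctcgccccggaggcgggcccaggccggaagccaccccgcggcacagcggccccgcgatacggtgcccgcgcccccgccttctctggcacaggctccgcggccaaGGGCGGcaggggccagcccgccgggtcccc
UBE2N (chr12:93441898-93442197, minus strand): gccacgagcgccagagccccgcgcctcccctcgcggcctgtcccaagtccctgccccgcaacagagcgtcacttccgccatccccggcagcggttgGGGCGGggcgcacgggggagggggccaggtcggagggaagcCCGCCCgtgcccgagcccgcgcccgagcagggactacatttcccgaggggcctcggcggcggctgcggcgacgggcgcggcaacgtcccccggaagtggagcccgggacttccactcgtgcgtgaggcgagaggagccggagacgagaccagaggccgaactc

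Values are log2 intensities after all arrays were shifted to the same median, and every difference is on that log2 scale. Before the shift the array medians over the genes tested ran from 6.257 to 6.268 at 0.5 nM, stood at 6.315 at 0.25 nM and ran from 6.175 to 6.178 in control, and the median difference from control over all genes was then 0.0994 at 0.5 nM and 0.136 at 0.25 nM. Values were exactly equal on all 3 arrays in 48.6% of table rows at 0.5 nM, 42.0% at 0.25 nM and 47.8% in control, while equal values between groups numbered 0, so the spread within a group is a poor guide to the error of a difference between groups. A pair of tests was therefore set side by side. The array-level limma test takes its error from the arrays within groups, so its p-values understate the uncertainty of a difference between transfections. The group-level limma test compares the mean of both doses with control over the 3 group means, each group counting as 1 unit. The doses serve as replicates of each other there, so a gene's own error is the difference between its doses. That own error has 1 degree of freedom and is moderated by genes at like intensity, with 50.6 prior degrees of freedom. The SE used thus comes mostly from the pooled genes. It was 0.23 for UBE2E1 and 0.25 for UBE2B, whose doses differed by -0.05 and 0.48. Real effects of dose over many genes would enter that pooled error and weaken the test. A gene that does not pass is therefore not shown to be unchanged. In replicate 3 of the 0.25 nM group some values had lost digits and were left out, which affected 7 of the 27 genes and leaves n = 2 there. Of 9 measured melanocytic markers, each of the 9 was brighter than the median gene (6.25), while of 2 fibroblast, 5 epithelial, 1 leukocyte and 1 endothelial markers measured, 0, 1, 0 and 0 were.

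Over both doses, the UBE2 genes showed differences from control in both directions and no common direction. Of these genes, 12 lay above control and 15 below on the mean of both doses, with a median difference of -0.01 against 0.002 over all 14812 genes. The range ran from -0.46 for the pseudogene UBE2MP1 to 0.55 for UBE2E1. By the group-level limma test 0 of 27 passed at an adjusted p of 0.05 (2 at an unadjusted p under 0.05), against 32 of 14812 genes (0.216%) overall (1005 unadjusted). The median absolute difference was 0.09 among the members and 0.15 over all genes. Among genes above the median level these medians were 0.0923 for 19 members and 0.116 for 7406 genes, and among the others 0.168 for 8 members and 0.206 for 7406 genes.

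**Figure D1:**
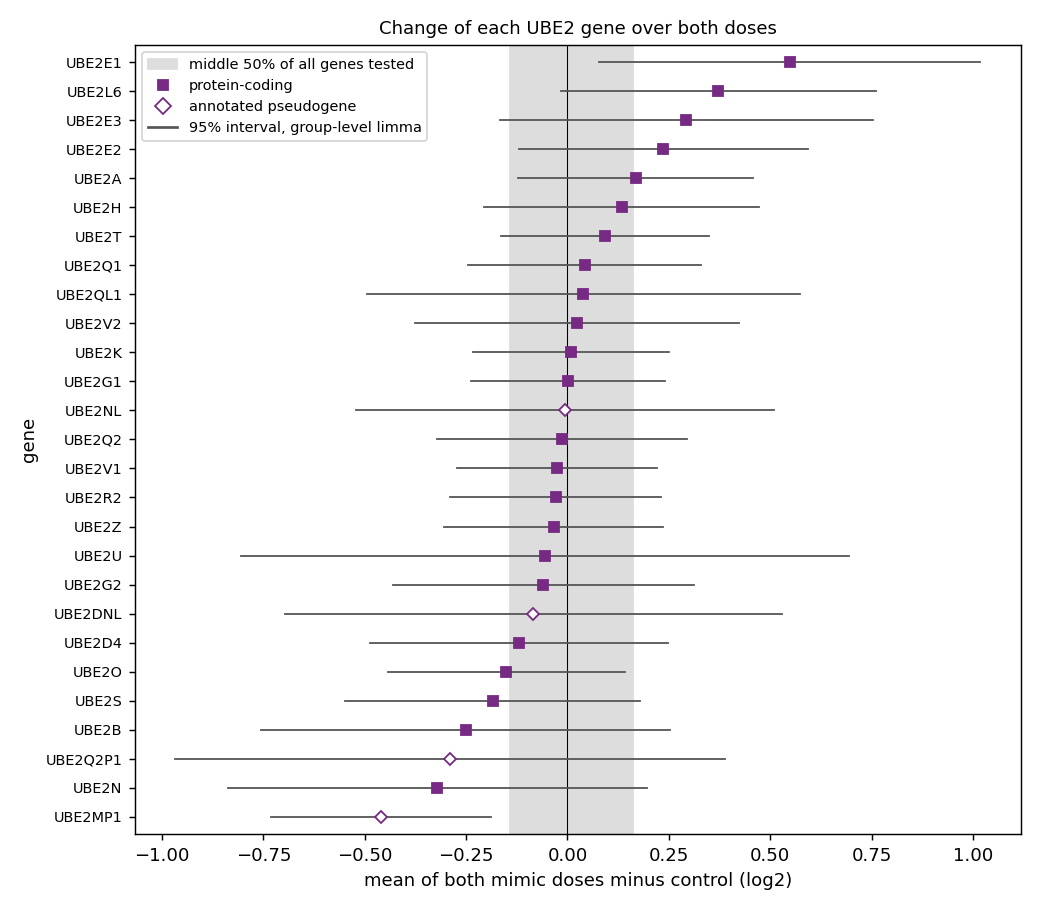
Difference between the mean of both mimic doses and control (log2, horizontal axis) for each of the 27 UBE2 genes, ordered from highest to lowest, with the 95% interval of the group-level limma test; filled squares are protein-coding genes and open diamonds annotated pseudogenes. The grey band is the interquartile range of all genes tested; UBE2E1 at 0.55 and UBE2MP1 at -0.46 lie at the ends, and theirs are the intervals that leave out 0 on their own, before adjustment over all genes.

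At each dose singly, 10 of the 27 genes were called higher than control at 0.5 nM by the array-level limma test, where 33.8% of all genes were, and 8 were called lower, where 29.6% of all genes were. At 0.25 nM 11 were called higher against a background of 32.3% and 8 lower against 31.7%. The members' shares, 37.0% and 29.6% at 0.5 nM and 40.7% and 29.6% at 0.25 nM, lay near these backgrounds. The split depends on the scaling. With values as deposited, 12 members were called higher and 6 lower at 0.5 nM and 17 and 2 at 0.25 nM, where 69.2% and 74.8% of all called genes were higher. With arrays shifted by the median over all rows, 6 were called higher and 10 lower at either dose, where 42.5% and 43.7% of all called genes were higher, against 53.3% and 50.5% under the shift used here. All mimic arrays of both doses lay above all control arrays for 5 members (UBE2A, UBE2E1, UBE2E2, UBE2E3 and UBE2Q1; 18.5%, against 23.9% of all genes) and below them for 5 (UBE2MP1, UBE2N, UBE2O, UBE2R2 and UBE2Z; 18.5%, against 21.4% of all genes). With values as deposited these counts were 13 above (39.0% of all genes) and 2 below, UBE2MP1 and UBE2N (10.8% of all genes). The doses share the same 3 control arrays, so their differences from control are not independent.

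**Figure D2:**
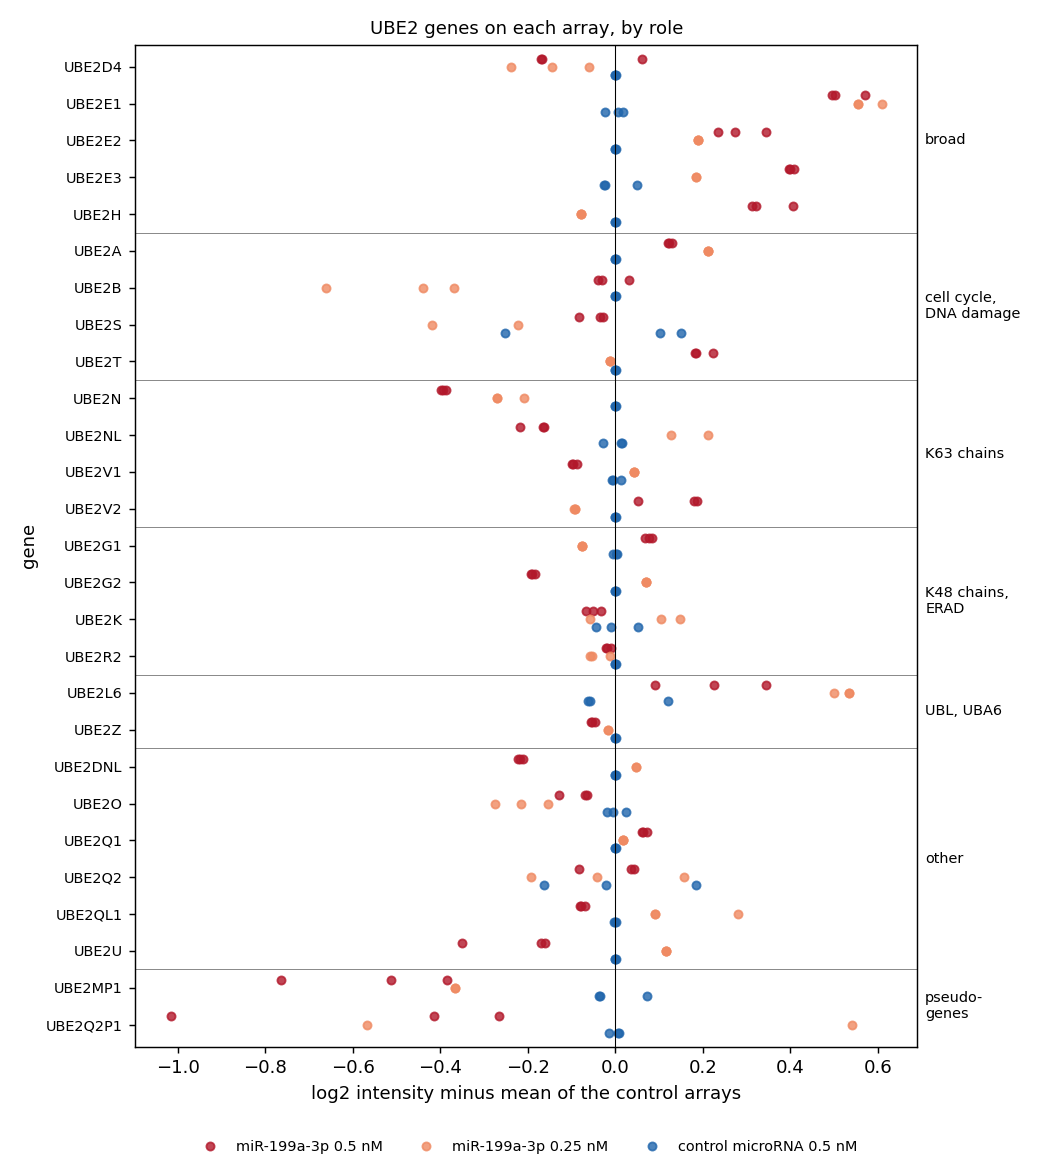
Log2 intensity on each array minus the mean of the 3 control arrays (horizontal axis), for the 27 UBE2 genes grouped by role; each point is 1 array, in the order 0.5 nM mimic, 0.25 nM mimic and control from the top of each gene's line. Arrays of a group often coincide; the 3 UBE2E genes lie right of control at both doses, UBE2N and UBE2MP1 left of it.

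Among E2s that work with many ligases, the 3 UBE2E genes lay highest above control on the mean of both doses. UBE2E1, which like its relatives carries an extension ahead of the catalytic core, had levels of 6.29, 6.28 and 6.36 at 0.5 nM and 6.40, 6.34 and 6.34 at 0.25 nM, against 5.81, 5.76 and 5.79 in control. No mimic array overlapped the control arrays, and the doses were close to each other. The differences were 0.52 ± 0.025 and 0.57 ± 0.025 (SE; array-level limma adjusted p = 1.15e-06 and 6.89e-07), or 1.44-fold and 1.49-fold. On the mean of both doses the difference was 0.55 ± 0.23 (SE), with a 95% interval from 0.08 to 1.02, and it did not pass the group-level limma test (adjusted p = 0.576, unadjusted p = 0.0232). Of all genes, 5.33% had a larger absolute difference. That share sets UBE2E1, at a mean level of 6.15, beside genes of every level. UBE2E1 lay below the median level (6.25), where absolute differences were larger, with a median of 0.206 against 0.116 above it.

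UBE2E3, an E2 that shuttles into the nucleus, had 6.49, 6.48 and 6.48 at 0.5 nM and 6.27 and 6.26 at 0.25 nM, against 6.06, 6.13 and 6.05 in control. Its differences were 0.40 and 0.19 (array-level limma adjusted p = 8.69e-06 and 7.24e-04; group-level adjusted p = 0.918). UBE2E2, whose gene lies next to UBE2E1 on chromosome 3 with 0 protein-coding genes between them, had 7.44, 7.51 and 7.41 at 0.5 nM and 7.36 on all 3 arrays at 0.25 nM, against 7.17 on all 3 control arrays. The groups did not overlap, at differences of 0.28 and 0.19 (array-level limma adjusted p = 3.71e-05 and 3.85e-04; group-level adjusted p = 0.908). The 0.5 nM arrays lay above the 0.25 nM arrays for UBE2E2 and UBE2E3, whereas the doses overlapped for UBE2E1. The 3 promoters printed above differ in GC boxes, with 0 in UBE2E1, 6 in UBE2E2 and 2 in UBE2E3.

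UBE2H, the E2 of the CTLH ligase, differed by dose. It had 8.06, 8.14 and 8.05 at 0.5 nM and 7.66 on all 3 arrays at 0.25 nM, against 7.73, 7.73 and 7.74 in control. The 0.5 nM arrays thus lay above control and the 0.25 nM arrays just below it, at 0.35 and -0.08 (array-level limma adjusted p = 7.87e-06 and 0.0211). The second call was lost on leaving out any 1 of the 3 control or the 3 0.25 nM arrays (highest adjusted p = 0.0552). UBE2D4, a member of the broadly acting UBE2D group, was called at neither dose, at -0.09 and -0.15 (array-level limma adjusted p = 0.298 and 0.109). Its arrays ran from 7.10 to 7.33 at 0.5 nM and from 7.03 to 7.21 at 0.25 nM, against 7.27 on all 3 control arrays. Without 0.5 nM replicate 1, the highest array of its group, both differences were called, at -0.17 and -0.15 (adjusted p = 0.0258 and 0.0269).

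**Figure D3:**
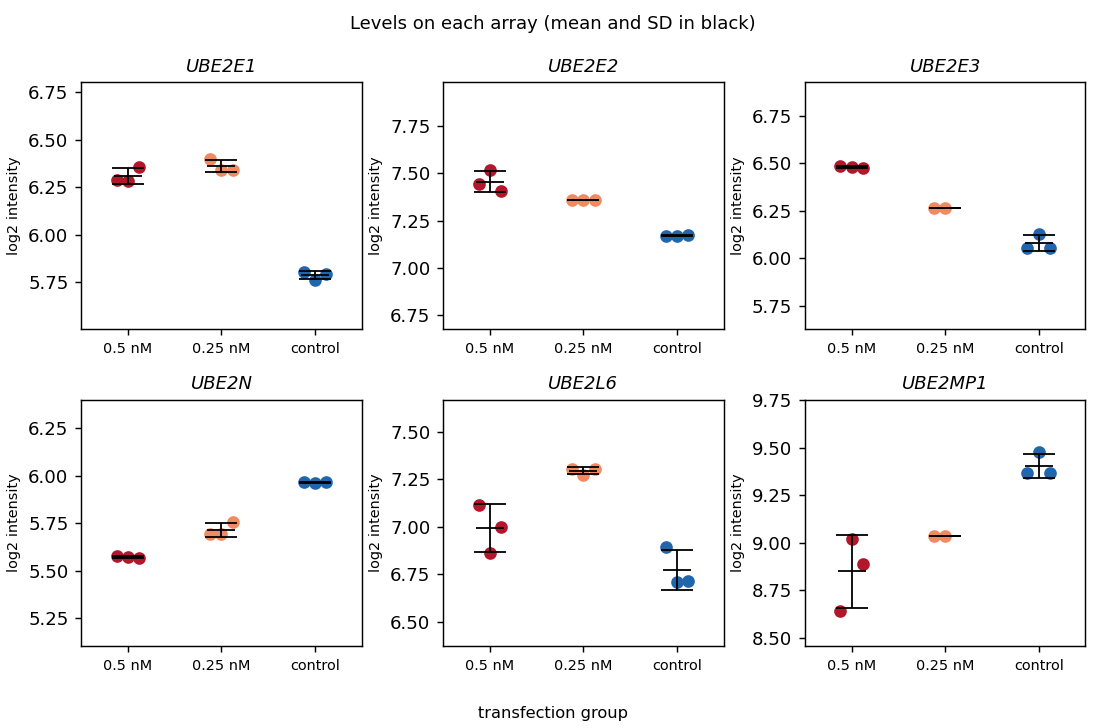
Log2 intensity (vertical axis, the same span of 1.3 log2 units in each panel) of UBE2E1, UBE2E2, UBE2E3, UBE2N, UBE2L6 and UBE2MP1 by transfection group (horizontal axis); each point is 1 array and the bars are the mean and SD. Mimic arrays lie above control for the UBE2E genes and below for UBE2N and UBE2MP1, and 1 mimic array of UBE2L6 at 0.5 nM lies under the highest control array.

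The E2s of DNA damage tolerance and of the cell cycle did not share a direction. UBE2A, a RAD6 homologue that acts with RAD18 on PCNA, had 8.52, 8.51 and 8.51 at 0.5 nM and 8.60 on all 3 arrays at 0.25 nM, against 8.39 on all 3 control arrays. Its differences were 0.12 and 0.21 (array-level limma adjusted p = 4.54e-07 and 2.19e-08; group-level adjusted p = 0.939). UBE2B, the other RAD6 homologue, had 6.11, 6.17 and 6.10 at 0.5 nM and 5.47, 5.77 and 5.70 at 0.25 nM, against 6.14, 6.13 and 6.14 in control. It lay at the control level at 0.5 nM, with -0.01 (array-level limma adjusted p = 0.888), and below it at 0.25 nM, with -0.49 (array-level limma adjusted p = 6.04e-04). The group-level limma adjusted p of UBE2B was 0.964, and its mean level of 5.97 was below the median of all genes.

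UBE2T, the E2 of the Fanconi anaemia pathway, had 9.82, 9.78 and 9.78 at 0.5 nM and 9.59, 9.58 and 9.59 at 0.25 nM, against 9.60 on all 3 control arrays. Only its 0.5 nM difference of 0.20 was called (array-level limma adjusted p = 2.53e-06), that at 0.25 nM being -0.01 (adjusted p = 0.363). UBE2S, which extends chains for the anaphase-promoting complex, had 7.36, 7.40 and 7.41 at 0.5 nM and 7.02 and 7.22 at 0.25 nM, against 7.19, 7.54 and 7.59 in control. Here the control arrays themselves spread by an SD of 0.22, and neither difference was called (-0.05 and -0.32; array-level limma adjusted p = 0.747 and 0.0756). UBE2S passed at 0.25 nM in the fit blocked by replicate, with -0.28 (limma adjusted p = 0.0465), and without control replicate 1, with -0.45 (adjusted p = 0.00326).

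Of the E2 pair that builds K63-linked chains, the catalytic subunit UBE2N lay below control at both doses. It had 5.58, 5.57 and 5.57 at 0.5 nM and 5.69, 5.69 and 5.76 at 0.25 nM, against 5.96, 5.96 and 5.97 in control. No arrays overlapped, and the 0.5 nM arrays lay lowest. The differences were -0.39 ± 0.017 and -0.25 ± 0.017 (SE; array-level limma adjusted p = 5.85e-07 and 8.59e-06), a 0.762-fold and a 0.841-fold level. Over both doses the difference was -0.32 ± 0.26 (SE), with a 95% interval from -0.84 to 0.20 (group-level limma adjusted p = 0.924). The mean level of UBE2N, 5.75, was below the median of all genes.

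Its partners UBE2V1 and UBE2V2, E2 variants that lack the catalytic cysteine, differed from control in opposite directions at the doses. UBE2V1 had 9.924, 9.916 and 9.913 at 0.5 nM and 10.055, 10.054 and 10.055 at 0.25 nM, against 10.025, 10.004 and 10.006 in control, or -0.09 and 0.04. UBE2V2 had 7.05, 7.04 and 6.91 at 0.5 nM and 6.76 on all 3 arrays at 0.25 nM, against 6.86 on all 3 control arrays, or 0.14 and -0.09. The array-level test called all 4 (limma adjusted p = 1.93e-05 and 0.00159 for UBE2V1, 0.00886 and 0.0467 for UBE2V2). The last of these was lost in the fit blocked by replicate (limma adjusted p = 0.057) and on leaving out any 1 control or 0.25 nM array (highest adjusted p = 0.101). The pseudogene UBE2NL, a copy of UBE2N, differed by -0.18 and 0.17, so that at 0.25 nM it lay above control where UBE2N lay below. Probes of a gene and its near-identical copies may share signal, which was not tested.

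E2s of K48-linked chains and of degradation at the endoplasmic reticulum showed small differences on the mean of both doses. For UBE2G1, UBE2G2 and UBE2K the doses lay in opposite directions, which cancel in that mean. The 0.5 nM difference of UBE2G2 exceeded the median absolute difference of all genes at that dose (0.169). UBE2G2, which acts with ligases of the endoplasmic reticulum, had 7.07, 7.07 and 7.06 at 0.5 nM and 7.33 on all 3 arrays at 0.25 nM, against 7.26 on all 3 control arrays. It lay below control at 0.5 nM, at -0.19, and above it at 0.25 nM, at 0.07 (array-level limma adjusted p = 4.19e-08 and 1.36e-05). UBE2G1, an E2 that extends K48 chains for cullin-RING ligases, ran the other way, at 0.08 and -0.08 (array-level limma adjusted p = 2.21e-05 and 2.48e-05). UBE2R2, a further cullin-RING partner, stood at -0.02 and -0.04 (0.06951 and 0.09649 with values as deposited), the second called (array-level limma adjusted p = 0.283 and 0.0236), though not on leaving out any 1 control array or replicate 1 or 2 of 0.25 nM (highest adjusted p = 0.0742). UBE2K, which carries a ubiquitin-associated domain, was called at neither dose, at -0.05 and 0.07 (array-level limma adjusted p = 0.463 and 0.320), but at 0.25 nM without replicate 1 of that dose (0.13, adjusted p = 0.0116). None of these 4 differed by more than 0.06 in size on the mean of both doses, and their group-level 95% intervals reached no further than -0.43 and 0.31.

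Among E2s of ubiquitin-like proteins, UBE2L6, the interferon-induced E2 of ISG15, had 7.12, 6.86 and 6.998 at 0.5 nM and 7.31, 7.27 and 7.31 at 0.25 nM, against 6.89, 6.71 and 6.71 in control. The 0.25 nM arrays lay above every control array, while 1 of the 0.5 nM arrays lay between the control arrays. Its differences were 0.22 ± 0.073 and 0.52 ± 0.073 (SE; array-level limma adjusted p = 0.0336 and 5.46e-04), and 0.37 ± 0.19 (SE) over both doses (group-level limma adjusted p = 0.768). The call at 0.5 nM was lost in 6 of the 9 fits that left out 1 array (without control replicate 2 or 3, replicate 1 or 3 of 0.5 nM, or replicate 2 or 3 of 0.25 nM), with adjusted p up to 0.102. Of 3 measured interferon response genes, IFIT1 lay higher at both doses, by 0.40 and 0.50 (array-level limma adjusted p = 6.65e-05 and 1.86e-05). ISG15 itself was at -0.01 and -0.07 (adjusted p = 0.700 and 0.00384), and the transcription factor IRF1 at -0.18 and 0.06 (adjusted p = 0.0194 and 0.330). The activating enzyme of ISG15, UBA7, was at -0.02 and 0.39 (adjusted p = 0.903 and 0.0227). What part these genes' differences have in that of UBE2L6 was not tested. UBE2Z, which is charged by UBA6, had 8.99, 8.98 and 8.98 at 0.5 nM and 9.02 and 9.02 at 0.25 nM, against 9.04, 9.03 and 9.04 in control, at -0.05 and -0.02 (array-level limma adjusted p = 2.96e-04 and 0.0630), or 0.03465 and 0.1215 with values as deposited.

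UBE2O, a large protein with both E2 and E3 activity, had 8.44, 8.502 and 8.499 at 0.5 nM and 8.29, 8.41 and 8.35 at 0.25 nM, against 8.55, 8.56 and 8.59 in control. No array overlapped control under the shift used here, at -0.09 and -0.21 (array-level limma adjusted p = 0.0547 and 9.50e-04). With values as deposited UBE2O differed by -0.001 and -0.08, and its arrays overlapped control at both doses. Blocking by replicate, its 0.5 nM difference passed as well (limma adjusted p = 0.0215), as it did without replicate 1 or 2 of 0.25 nM (lowest adjusted p = 0.0241). UBE2Q1 differed by 0.07 and 0.02 (array-level limma adjusted p = 1.90e-05 and 0.0158; 0.0509 for the second in the blocked fit and 0.0517 without control replicate 2), and UBE2Q2 by -0.001 and -0.03 with control arrays spread from 7.95 to 8.29. UBE2QL1 and UBE2U were below the median level of all genes, at means of 5.61 and 2.67, and differed by -0.08 and 0.15 (UBE2QL1) and by -0.23 and 0.12 (UBE2U). Single arrays decided several calls near 0 here. At 0.25 nM UBE2QL1 was called, but not without any 1 control array (highest adjusted p = 0.0687), while UBE2U was called without replicate 2 of 0.5 nM (adjusted p = 5.4e-06), UBE2T without replicate 1 of 0.5 nM (0.00824) and UBE2Z without replicate 1 or 3 of 0.5 nM (lowest 0.00981). At 0.5 nM UBE2QL1 was called without replicate 1 of 0.25 nM (2.7e-05) and UBE2R2 without replicate 3 of 0.25 nM (0.04).

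Of the annotated pseudogenes, UBE2MP1 stood lowest in the family on the mean of both doses. This copy of UBE2M, the E2 of NEDD8, had 8.64, 9.02 and 8.89 at 0.5 nM and 9.04 and 9.04 at 0.25 nM, against 9.37, 9.48 and 9.37 in control. Every mimic array lay below every control array, with the widest spread at 0.5 nM (SD 0.19). The differences were -0.55 ± 0.097 and -0.37 ± 0.11 (SE; array-level limma adjusted p = 0.00307 and 0.0267). Over both doses the difference was -0.46 ± 0.14 (SE), with a 95% interval from -0.73 to -0.19, and its group-level adjusted p of 0.228 (limma; unadjusted p = 0.00127) was the lowest of the 27. Both calls depend on leaving out the value of 0.25 nM replicate 3, which was taken to have lost digits. With values of few digits kept, the 0.5 nM difference did not pass (-0.55, array-level limma adjusted p = 0.062), and that at 0.25 nM was -0.09 (adjusted p = 0.735). At 0.25 nM it was -0.23 with values as deposited (adjusted p = 0.131), and the call was lost on leaving out any 1 control array or replicate 1 or 2 of 0.25 nM (highest adjusted p = 0.0949). Of all genes, 8.79% had a larger absolute difference. UBE2M itself was not analysed here. UBE2Q2P1 had 4.16, 3.41 and 4.01 at 0.5 nM and 4.96 and 3.86 at 0.25 nM, against 4.43, 4.41 and 4.43 in control, with neither difference called (-0.57 and -0.01; array-level limma adjusted p = 0.185 and 0.979). UBE2DNL, a relative of the UBE2D genes at a mean of 4.87, differed by -0.22 and 0.05.

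Between the doses, 9 of the 27 genes were called higher at 0.5 nM than at 0.25 nM by the array-level limma test, where 33.0% of all genes were, and 10 were called lower, where 29.1% of all genes were. For 10 members (37.0%) all 0.5 nM arrays lay on one side of the control arrays and all 0.25 nM arrays on the other, against 16.8% of all genes. With values as deposited, not shifted, the count was 6 (22.2%), against 16.1% of all genes. Under the shift these were UBE2DNL, UBE2G1, UBE2G2, UBE2H, UBE2NL, UBE2QL1, UBE2T, UBE2U, UBE2V1 and UBE2V2. Their differences from control ran from 0.0122 to 0.347 in size, and 4 of the 10 genes were among the 8 members at or below the median level. As deposited, the 0.25 nM differences of UBE2G1, UBE2H, UBE2T and UBE2V2 turned positive (0.06189, 0.0592, 0.1254 and 0.04472), as did the 0.5 nM difference of UBE2QL1 (0.01), so that for these 5 genes the opposite sides rest on the shift. UBE2DNL, UBE2G2, UBE2NL, UBE2U and UBE2V1 lay on opposite sides under both scalings, and UBE2B as deposited. The family's median absolute difference between doses was 0.19, against 0.17 over all genes.

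In the promoter windows, 19 of the 27 members had an entry, all of them protein-coding. The promoters they are set beside were not limited to protein-coding genes, so the sets are not alike. GC boxes were found in 15 of these 19 (78.95%), against 44.59% of 27305 promoters in the table. The median GC content was 69.7% in the members' windows and 58.3% in all. CCAAT was found in 26.32% of the members' windows against 35.7% of all, TATAAA in 5.26% against 11.95%, the antioxidant response element (TGACNNNGC) in 10.53% against 13.56%, and GGAAGTG in 21.05% against 11.5%, each on both strands and with overlaps between motifs left in. The interferon-stimulated element (GAAA, any 2 bases, GAAA) was found in 0 of the 19 windows, UBE2L6 included, and in 3.65% of all. A match is a description of the letters in this window and not a binding site.

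The genes that act before and after the E2s also differed from control in both directions. Of 6 measured activating enzymes, 0 were called higher and 2 lower at 0.5 nM, and 2 higher and 2 lower at 0.25 nM (array-level limma). Of all genes 33.8% were called higher and 29.6% lower at 0.5 nM, and 32.3% and 31.7% at 0.25 nM, which are the shares to set beside this list and those that follow. UBA1, the main E1 of ubiquitin, was at -0.07 and 0.02 (adjusted p = 2.19e-04 and 0.120). UBA6, the second ubiquitin E1 and the one that charges UBE2Z, was at -0.13 and -0.14 (adjusted p = 0.0146 and 0.0109), and UBA3, a subunit of the NEDD8 E1, at 0.05 and 0.20 (adjusted p = 0.137 and 3.41e-04). The ubiquitin gene UBB, whose arrays spread widely, was called at neither dose (0.08 and -0.12).

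Of 10 proteasome partner genes, 1 was called higher and 5 lower at 0.5 nM, and 2 higher and 6 lower at 0.25 nM (all genes 33.8% and 29.6%, then 32.3% and 31.7%), with medians of -0.07 and -0.10 against 0.01 and -0.001 over all genes. All mimic arrays lay below all control arrays for 5 of them, against 21.4% of all genes. With values as deposited this held for NFE2L2 alone of the 10, against 10.8% of all genes. NFE2L2, the NRF2 transcription factor that induces proteasome genes under stress, had 9.21, 9.20 and 9.20 at 0.5 nM and 9.19, 9.18 and 9.19 at 0.25 nM, against 9.41, 9.41 and 9.42 in control. Its differences were -0.21 and -0.23 (array-level limma adjusted p = 2.26e-08 and 1.48e-08; group-level adjusted p = 0.825). The ubiquitin receptor ADRM1 was at -0.15 and -0.10, and the proteasome deubiquitinases UCHL5 and USP14 at -0.06 and -0.18, and at -0.14 and -0.11. PAAF1, which binds proteasome ATPases, was at -0.01 and -0.25, and the assembly chaperone POMP at -0.01 and -0.01 (adjusted p = 0.919 and 0.884). TXNL1 went the other way and was called higher at both doses, at 0.04 and 0.17 (array-level limma adjusted p = 0.00250 and 9.42e-07). SEM1 was at -0.08 and 0.15 (adjusted p = 0.0874 and 0.00662). NFE2L1 was at -0.01 and -0.17 (adjusted p = 0.381 and 2.29e-05), and NGLY1 at -0.34 and -0.01 (adjusted p = 0.00815 and 0.917).

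Of 7 shuttle factors and p97 partners, 1 was called higher and 3 lower at 0.5 nM, and 1 higher and 2 lower at 0.25 nM, against the same shares of all genes. UFD1, a cofactor of p97 in pulling ubiquitylated proteins from membranes, had 7.58, 7.57 and 7.57 at 0.5 nM and 7.75 on all 3 arrays at 0.25 nM, against 8.06 on all 3 control arrays. Its differences were -0.49 and -0.31 (array-level limma adjusted p = 3.45e-10 and 3.12e-09; group-level adjusted p = 0.556). UBQLN1, a shuttle that carries ubiquitylated proteins to the proteasome, was at -0.25 and -0.34 (array-level limma adjusted p = 7.12e-04 and 1.40e-04; group-level adjusted p = 0.556). VCP, which encodes p97, was at 0.11 and -0.01 and NPLOC4 at -0.03 and 0.001. By the group-level limma test 0 genes passed in each of these 4 lists (lowest adjusted p = 0.556).

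**Figure D4:**
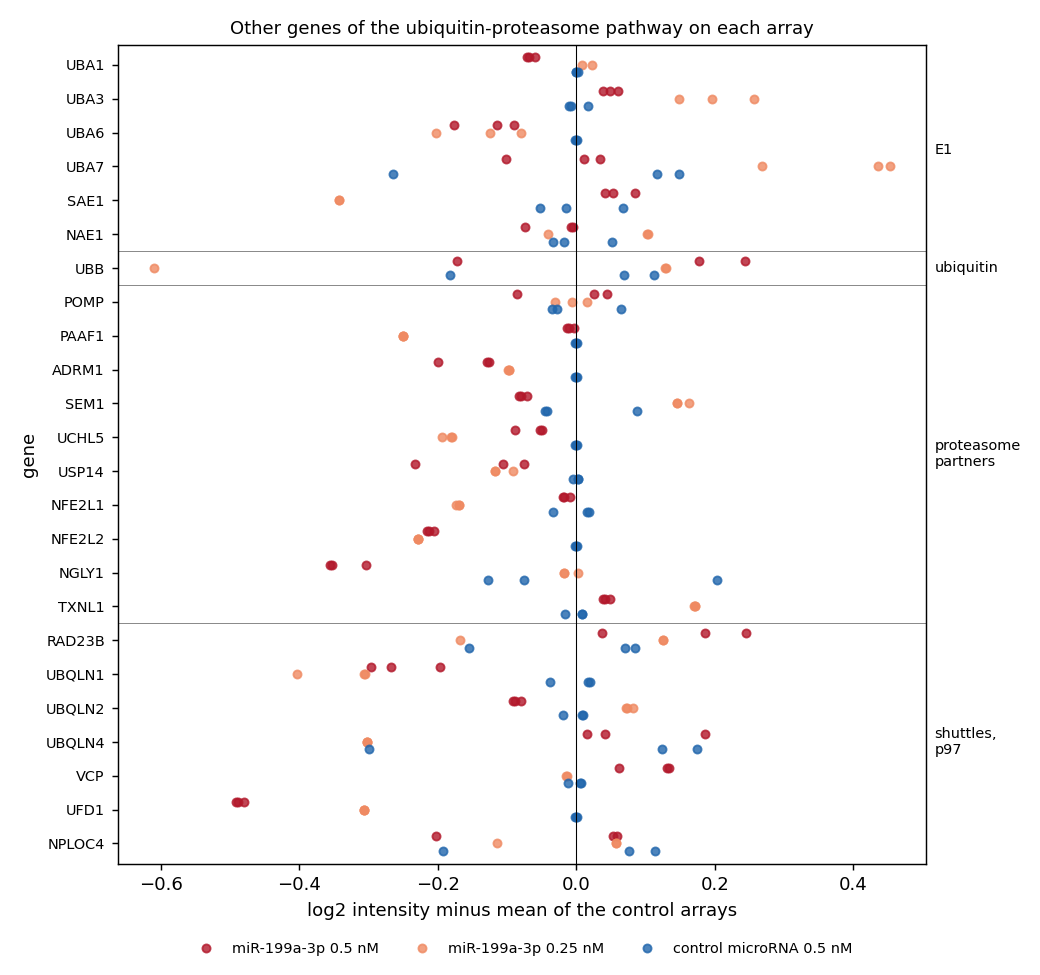
Log2 intensity on each array minus the mean of the 3 control arrays (horizontal axis) for activating enzymes, a ubiquitin gene, proteasome partners and shuttle factors; each point is 1 array, in the order 0.5 nM mimic, 0.25 nM mimic and control from the top of each gene's line. UBA6, UFD1, UBQLN1, NFE2L2, ADRM1, PAAF1, USP14 and UCHL5 lie left of control at both doses under the shift used here. As deposited, UFD1, UBQLN1 and NFE2L2 do.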

How the data were processed

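Total RNA of 9 samples was hybridised to arrays after biotin labelling (WT PLUS reagent, per the labels' protocols). The authors deposited log2 intensities for 44629 rows. Per the submitters' processing notes, RMA, oligo and affy were used; tool versions, the order of steps and the build: not given in the sources used here. The annotation used here named 15835 rows, each with 1 symbol, and left 28794 unnamed. Whether the platform gives several symbols to some of the unnamed rows was not examined. Of the named rows, 15835 had a gene ID that RefSeq holds. The brightest row over all arrays was kept for 651 genes with several rows, leaving 14812 genes.

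In 0.25 nM replicate 3, 0 values have a zero as first decimal, against 4178 to 4774 on the other arrays, so values of fewer than 10 digits there were left out (19.13% of genes). Arrays were shifted to one median over these genes. Limma 3.58.1 (R 4.3.3) was fitted across all genes, two-sided, with Benjamini-Hochberg adjustment and a threshold of 0.05: at array level with 1 mean per group over 9 arrays, and at group level with an intensity trend over the 3 group means, where a gene's own error has 1 degree of freedom and is moderated by that of genes at like intensity, with 50.6 prior degrees of freedom. Both were also run on simulated data with known changes. The outcome is not given here, so that run does not speak for the accuracy of either test on these arrays. Precision rests on 3 arrays per group.

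Deviations from group means were positively correlated between arrays with the same replicate number (0.136 to 0.589 over 11978 genes in all 9 such pairs). Pairs with different numbers ran from -0.465 to 0.359, and only the replicate 1 pairs (0.492 to 0.589) lay above that range. Pairing of replicates 2 and 3 is thus not established, and the number was used as a block in an alternative only. The members and lists were chosen with earlier results of these data known. The rule for named genes took members past the group-level test, the highest and lowest of each role class, the 6 highest and 6 lowest members above the median level, and a set of well-known members; the others were also given, with values, after these were seen. Alternatives were the scaling, the digit filter, a level filter, the mean of a gene's rows, the variance model, a minimum change of 1.2-fold, the block and each array left out.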

Additional observations from a re-analysis of the deposited data

Results flagged for a closer look

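The doses differed from each other (0.5 nM minus 0.25 nM, array-level limma, adjusted p under 0.05) for 19 of the 27 genes. The test takes its error within groups, and 33.0% and 29.1% of all genes were called higher and lower by it. Higher at 0.5 nM than at 0.25 nM were UBE2B by 0.48, UBE2H by 0.43, UBE2V2 by 0.23, UBE2E3 by 0.22, UBE2T by 0.21, UBE2G1 by 0.15, UBE2O by 0.13, UBE2E2 by 0.10 and UBE2Q1 by 0.0475. Lower at 0.5 nM were UBE2NL at -0.35, UBE2U at -0.34, UBE2L6 at -0.30, UBE2DNL at -0.27, UBE2G2 at -0.26, UBE2QL1 at -0.23, UBE2N at -0.14, UBE2V1 at -0.14, UBE2A at -0.088 and UBE2Z at -0.0355. Both groups held the same mimic, and dose and the group's own processing cannot be told apart.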

How the results depend on the processing

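The group-level limma test called 0 of the 27 UBE2 genes under all 16 alternatives run on it. Over the same alternatives it called 0 to 40 of all genes: 0 with values as deposited, without the intensity trend, on group medians and with arrays shifted by the median over all rows (an alternative added after seeing the data), 4 with the mean of a gene's rows, 13 among genes above the median level, and 6 to 40 when 1 array was left out. UBE2MP1 kept its direction throughout, from -0.50 to -0.32 (adjusted p 0.141 to 0.833), and UBE2E1 from 0.50 to 0.66 (adjusted p 0.490 to 0.798). At array level, a minimum change of 1.2-fold left 4, 3 and 1 UBE2 genes called (0.5 nM, 0.25 nM and between doses) and 2679, 2644 and 2604 of all genes. Among genes above the median level 3783, 3882 and 3568 were called, and 11 UBE2 genes at 0.25 nM. Keeping the values of few digits gave 13 UBE2 genes at 0.5 nM, where UBE2DNL, UBE2MP1, UBE2NL, UBE2Q1 and UBE2Z lost their calls, and 12 at 0.25 nM, where UBE2DNL, UBE2G2, UBE2MP1, UBE2NL, UBE2Q1, UBE2QL1 and UBE2V1 did. The counts of genes on one side of control with values as deposited were added after seeing the data. With 1 array left out the UBE2 counts ran from 17 to 20, from 13 to 22 and from 19 to 20, and those of all genes from 8706 to 9788, from 8745 to 9605 and from 8676 to 9443. The family's median was -0.05 and -0.01 (0.5 nM and 0.25 nM); it became 0.0377 and 0.125 with values as deposited and -0.102 and -0.0404 with the shift over all rows, -0.00102 at 0.5 nM among genes above the median level, and 0.0194 at 0.25 nM with values of few digits kept; with 1 array left out it ran from -0.0706 to -0.016 and from -0.0123 to 0.0188. With the replicate block it was 0.0186 at 0.25 nM, and the calls that changed stand beside UBE2O, UBE2S, UBE2V2 and UBE2Q1. With values as deposited these changed sign from a call, or to one: at 0.5 nM UBE2R2 to 0.06951 and UBE2Z to 0.03465, at 0.25 nM UBE2G1 to 0.06189, UBE2H to 0.0592, UBE2R2 to 0.09649, UBE2T to 0.1254, UBE2V2 to 0.04472 and UBE2Z to 0.1215, and between doses UBE2Q1 to -0.003816. UBE2Q1 at 0.25 nM also turned, to -0.004917 with values of few digits kept and to -0.01841 with the shift over all rows. These settings move the median over all genes, to 0.0994 and 0.136 as deposited and to -0.0407 and -0.037 with the shift over all rows (0.5 nM and 0.25 nM). The same counts for proteasome subunits of the PSMA to PSMG series were not run, as those genes were not analysed here.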

Other observations

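Some E2 enzymes and E2-like proteins have symbols outside the UBE2 series; 7 were looked at after the other values were seen. By the array-level limma test, 0 were called higher and 2 lower at 0.5 nM, and 1 higher and 3 lower at 0.25 nM. Of all genes 33.8% and 29.6% were called higher and lower at 0.5 nM, and 32.3% and 31.7% at 0.25 nM. TSG101, an E2-like sorting protein that lacks conjugating activity, had 8.98, 8.97 and 8.95 at 0.5 nM and 9.02 and 9.02 at 0.25 nM, against 9.28 on all 3 control arrays, differences of -0.32 and -0.26 (group-level limma adjusted p = 0.650). CDC34, the founding E2 of cullin-RING ligases, had 7.78, 7.77 and 7.77 at 0.5 nM and 7.77, 7.79 and 7.77 at 0.25 nM, against 7.85, 8.06 and 8.06 in control (group-level limma adjusted p = 0.909). ATG3 was at -0.08 and 0.12 and UFC1 at -0.10 and -0.29, each called at 0.25 nM alone (array-level limma adjusted p = 0.0216 and 0.00734). BIRC6 at 0.22 and 0.08, AKTIP at 0.25 and -0.08 and ATG10 at 0.09 and -0.05 were called at neither dose.

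There are 5 named rows that carry a symbol that begins with PSM without being a proteasome subunit, which were also chosen after values were seen. PSMC3IP, a recombination factor, had 8.26, 8.25 and 8.25 at 0.5 nM and 8.22, 8.28 and 8.28 at 0.25 nM, against 7.84, 7.91 and 7.91 in control (0.37 and 0.37; group-level limma adjusted p = 0.556). PSMB8-AS1, an antisense RNA, was at 0.39 and 0.41 (group-level limma adjusted p = 0.854) and PSMG3-AS1, another, at -0.50 and -0.23 (adjusted p = 0.874). PSMA3-AS1 was at 0.17 and 0.12 and PSMD6-AS2 at -0.13 and 0.49. None of these values measures a proteasome subunit.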
